A study of Mus musculus with 6 samples.

Results

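Local splicing variations that were quantified in hepatocytes of mice on a low-fat diet and absent from the table for a high-fat diet are described here. A local splicing variation (LSV) groups the splice junctions that start from, or arrive at, a single reference exon, and it can include an intron that is kept. Members were chosen by LSV identifier, as those present in the low-fat table and missing from the high-fat table. This rule kept 5358 of 32268 LSVs in the low-fat table (16.6%), among 32799 LSVs on either diet. They lie in 2548 of its 7099 genes (35.9%). Of the members, 2062 belong to 1067 genes with no LSV at all in the high-fat table (15.0% of the 7099), and the other 3296 belong to 1481 genes that have other LSVs there. The converse set, found on the high-fat diet alone, held 531 of 27441 LSVs (1.94%).

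The groups were 3 hepatocyte libraries on the high-fat diet (HFD, 60% fat) and 3 on the low-fat diet (LFD, 10% of calories as fat). All came from livers of male C57BL/6J mice that had eaten chow with 13.5% fat up to the age of 8 weeks and were then kept for 12 weeks on 1 of the diets. Stranded mRNA libraries were read as paired ends. Nothing in the labels says whether a library is 1 mouse or a pool, and each table used here holds 1 value per junction and diet, pooled over libraries. No spread between animals, test between diets or sequencing depth per library could therefore be had, and the errors below are posterior SDs, which cover reads and not mice. All 8 hepatocyte marker genes examined had LSVs in the low-fat table. So did 3 of 12 macrophage, 4 of 10 endothelial, 2 of 9 stellate, 1 of 6 bile duct and 0 of 12 leukocyte markers.

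A pre-mRNA can be spliced in more than 1 way: a cassette exon can be kept or skipped, a 5′ or 3′ splice site can shift, and an intron can stay in the mature RNA. The percent spliced in (PSI), written here as a fraction, is the share of an LSV's reads that use a given junction or intron. In liver such choices decide among others whether a short exon enters a metabolic enzyme. Junctions can also show which first exon a transcript carries. The labels do not state the read minimums behind the tables, and for a missing LSV a lack of reads and a lack of the splice choice cannot be told apart. In bulk RNA, fewer cells that express a gene and less RNA per cell cannot be told apart.

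Short sequence differences carried several of the most even choices, and the coding sequences that result are shown for some of these, with D930015E06Rik as a lopsided choice beside them. Each pair spans the exon junction of the mRNA, 5′ to 3′, and differs by the 3 bases in capitals, which are kept when the upstream of a pair of adjacent 3′ splice sites is used. The Acaca exon is given in capitals with 3 bases of each neighbour, followed by the junction that skips it. Sequences are from GENCODE M21 transcripts on GRCm38 (mm10), and junctions are given by the last and first exon bases.
Setd2 upstream site, chr9:110590436-110592399, plus strand: aggagagcacagTAGctgaacgaggaa
Setd2 downstream site, chr9:110590436-110592402, plus strand: aggagagcacagctgaacgaggaa
Orc3 upstream site, chr4:34578032-34579743, minus strand: agaacctcgatgCAGatagcaaagagg
Orc3 downstream site, chr4:34578029-34579743, minus strand: agaacctcgatgatagcaaagagg
Supt20 upstream site, chr3:54698659-54701487, plus strand: cccgaggttaagCAGaaattaagaaga
Supt20 downstream site, chr3:54698659-54701490, plus strand: cccgaggttaagaaattaagaaga
D930015E06Rik upstream site, chr3:83913388-83919451, minus strand: ccttcagcagagCAGgaagatccttcc
D930015E06Rik downstream site, chr3:83913385-83919451, minus strand: ccttcagcagaggaagatccttcc
Acaca exon, chr11:84290288-84290311, plus strand: cagAGGGAACATCCCCACGCTAAACAGaat
Acaca skipping junction, chr11:84280510-84292891, plus strand: atcccatccaaacagaatgtcctttgcctc

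Where it could be computed, the effective read number of LFD-only LSVs was mostly lower than that of the others in the low-fat table. The effective read number, PSI × (1 − PSI) / posterior variance − 1, restates a posterior variance as the number of reads that would give it. It was computed for 1572 LFD-only LSVs with a junction of PSI between 0.1 and 0.9. Its median was 91.6, with 5% below 58.3 and 5% above 155. The median was 83.5 in genes with no HFD LSV and 95.2 in genes with others. Among LSVs on both diets it was 205 on LFD. Presence in a table can itself depend on reads, so these values are a description and were given no test.

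The share of low-fat LSVs that were missing on HFD fell in steps along this scale. Below 60 effective reads 105 of 114 LSVs were LFD-only (92.1%), and from 100 to 150 the count was 525 of 1484 (35.4%). Above 300 it was 2 of 1051 (0.19%). In the shared LSVs of 411 genes with an LFD-only LSV, the effective read number was a median 0.745 times as large on HFD as on LFD (quartiles 0.662 and 0.843). It was 0.788 times as large in 1426 genes without one (quartiles 0.696 and 0.889). The ratio was below 1 in 92.2% of the genes with LFD-only LSVs and in 89.5% of the others, and the quartile ranges overlap. The part of precision in the results below was not tested.

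**Figure D1:**
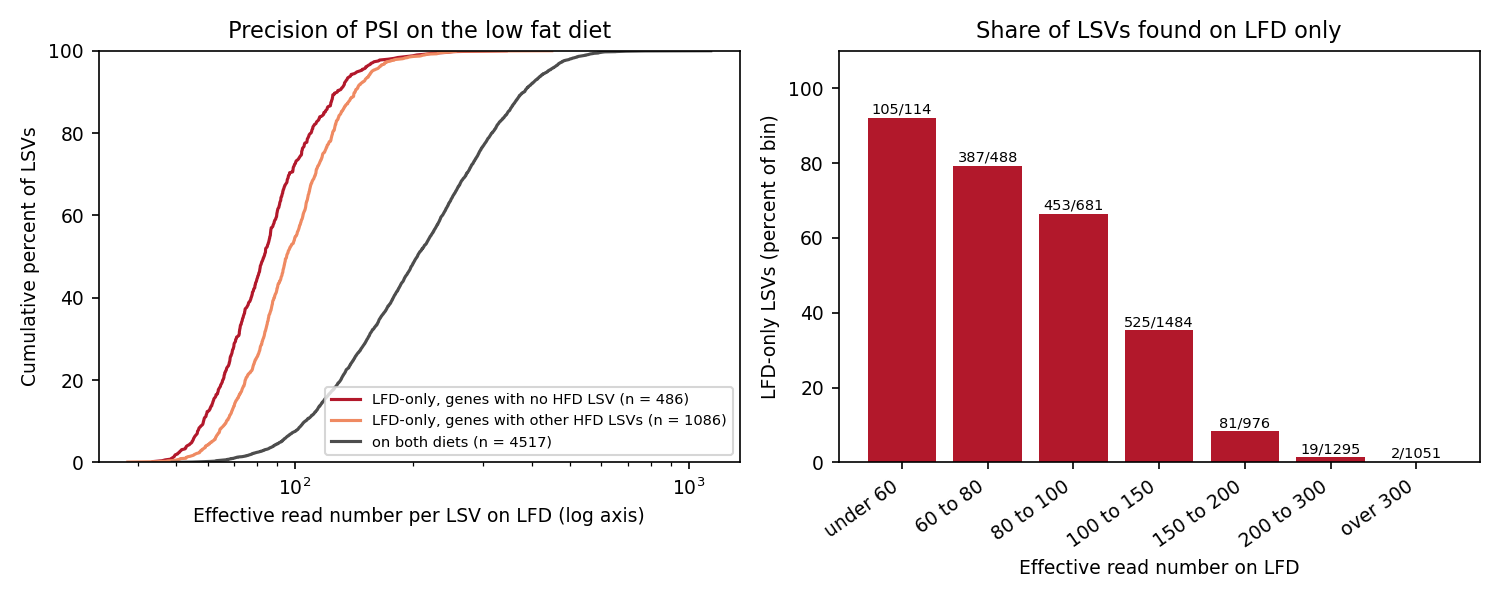
Left, cumulative percent of LSVs by effective read number on LFD (log axis) for LFD-only LSVs of genes without and with other HFD LSVs, and for LSVs on both diets. Right, percent of LSVs that are LFD-only in each range of effective read number, with counts above the bars; the share falls from 92.1% under 60 to 0.19% over 300.

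Posterior variance, which depends on PSI as well as on reads, was mostly larger in LFD-only LSVs. The largest posterior SD of an LFD-only LSV had a median of 0.0209, against 0.00753 for LSVs on both diets. It reached at most 0.0657 among LFD-only LSVs. The median was 0.0178 in genes with no HFD LSV and 0.0226 in genes with others. As variances, the LFD-only median was 0.000436, against 5.67e-05 for LSVs on both diets. A variance under 1e-06 was seen in 0.467% of LFD-only LSVs and in 28.8% of LSVs on both diets.

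Members lay farther from the 3′ end of their transcripts. The spliced distance from the reference exon to the 3′ end had a median of 2660 nt for LFD-only LSVs, 2360 nt in genes with no HFD LSV and 2880 nt in genes with others. For LSVs on both diets it was 1840 nt. The longest annotated transcript of their genes had a median length of 3800 nt, against 2970 nt for genes with LSVs on both diets. Within the same gene the difference remained. In 1223 genes that hold both kinds, the LFD-only LSVs were farther from the 3′ end in 815 (66.6%), nearer in 355 and tied in 53, by a median of 316 nt.

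By class, LFD-only LSVs held more exon skipping and fewer retained introns than LSVs on both diets. Exon skipping was marked in 72.9% of LFD-only LSVs (72.6% in genes with no HFD LSV and 73.1% in genes with others), against 65.4% of LSVs on both diets. A retained intron was part of 14.9% (11.8% and 16.9% in the same order), against 25.5%. Alternative 3′ sites were flagged in 28.4% (29.3% and 27.9%), against 31.5%. Alternative 5′ sites were flagged in 19.2% (18.4% and 19.7%), against 22.3%. A junction that GENCODE does not list occurred in 30.5% of LFD-only LSVs, against 45.8% of LSVs on both diets.

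The shares of exon skipping and of retained introns were closer, and those of alternative sites farther apart, in the LSVs with an effective read number, that is, those with a junction of PSI from 0.1 to 0.9. There exon skipping was marked in 69.6% of 1572 LFD-only LSVs and 70.7% of 4517 LSVs on both diets, and retained introns in 20.5% of LFD-only LSVs and 28.1% of LSVs on both diets. Alternative 5′ sites were flagged in 30.3% of LFD-only LSVs and 35.6% of LSVs on both diets there, and 3′ sites in 38.5% of LFD-only LSVs and 43.6% of LSVs on both diets. At an effective read number of at most 150, exon skipping was marked in 68.6% of 1470 LFD-only LSVs and 67.6% of 1297 LSVs on both diets. Retained introns made up 20.6% and 24.4% in the same order, and unannotated junctions 36.3% and 37.2%. Alternative 5′ sites were flagged in 29.0% and 28.0%, and 3′ sites in 38.3% and 37.1%. The lower shares of alternative sites among LFD-only LSVs were thus not seen at that limit. Within the genes that hold both kinds, exon skipping was marked in 72.8% of LFD-only and 66.6% of shared LSVs, and a retained intron in 17.2% and 24.7%. LSVs with many entries are scarcer among members. Exactly 2 entries were seen in 73.4% of LFD-only LSVs (78.0% in genes with no HFD LSV, 70.5% in genes with others), against 68.3% of LSVs on both diets.

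**Figure D2:**
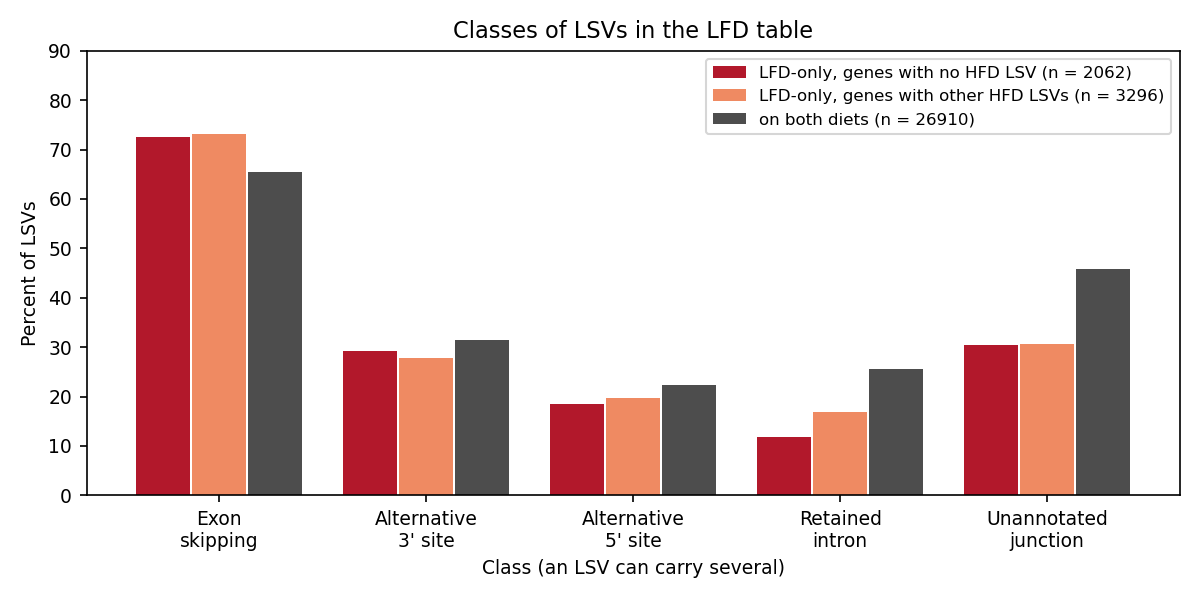
Percent of LSVs in the LFD table that carry each class, for LFD-only LSVs of genes with no HFD LSV, LFD-only LSVs of genes with other HFD LSVs, and LSVs on both diets (an LSV can carry several). Exon skipping is at 72.6% and 73.1% of LFD-only LSVs, against 65.4% of LSVs on both diets, while retained introns and unannotated junctions are rarer among LFD-only LSVs.

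The minor choice was used more often in LFD-only LSVs. The second largest PSI was at least 0.1 in 27.3% of LFD-only LSVs (21.6% in genes with no HFD LSV and 30.9% in genes with others), against 15.1% of LSVs on both diets. It was at least 0.2 in 14.7% of LFD-only LSVs, against 7.76%. At the other end, 40.7% of LFD-only LSVs had a second PSI under 0.02, against 57.3%. The lowest second PSI was 0.0125 in every set, so a value near it is at the floor of the scale. The dominant junction had a median PSI of 0.964 in LFD-only LSVs and 0.985 in LSVs on both diets. The sets also differ in precision, as given above, and its part in these PSI values was not tested.

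**Figure D3:**
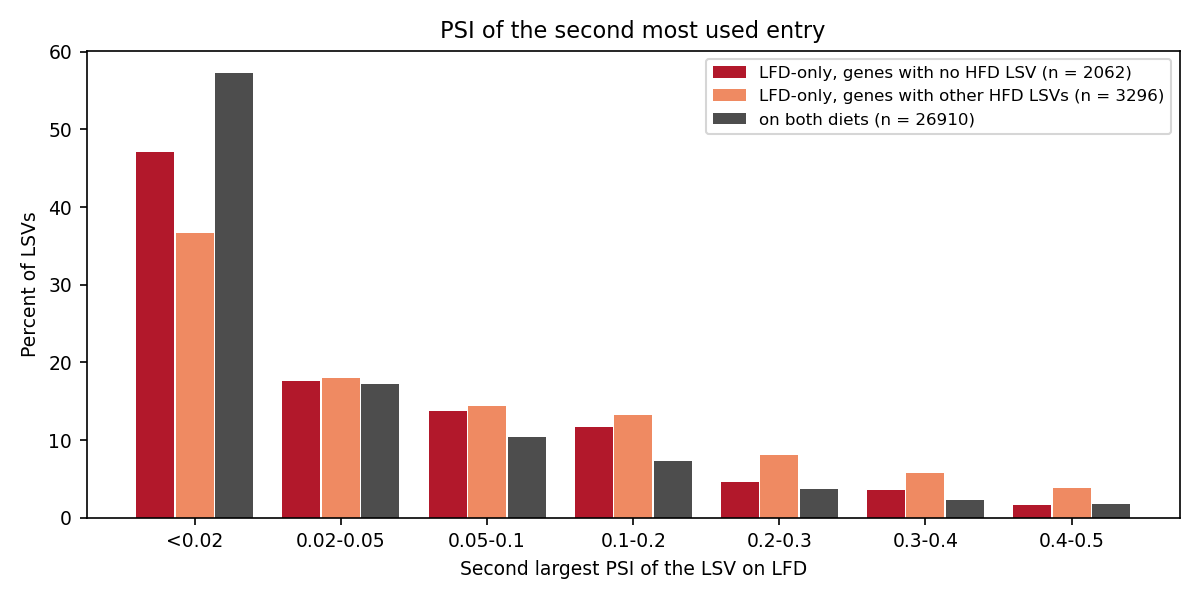
Percent of LSVs by the second largest PSI on LFD, for LFD-only LSVs of genes with no HFD LSV, LFD-only LSVs of genes with other HFD LSVs, and LSVs on both diets. The range under 0.02 holds 47.1%, 36.7% and 57.3% of them in that order, and the range from 0.4 to 0.5 holds 1.7%, 3.79% and 1.73%.

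Among coding cassette exons, a length that keeps the reading frame was more common where both forms were used. Among 1204 LFD-only LSVs on a simple, annotated coding cassette, 643 exons (53.4%) had a length that is a multiple of 3, against 46.6% of 4722 such LSVs on both diets. Where the minor form had a PSI of at least 0.1, the shares were 168 of 232 (72.4%) for LFD-only LSVs and 293 of 442 (66.3%) for LSVs on both diets. Exons of at most 30 bp made up 6.48% of the LFD-only cassettes (78 LSVs), against 3.32%. Median lengths were 105 and 106 bp. An exon seen from both of its ends counts once per end, so these LSVs are not independent of each other.

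Inclusion was high in most of these cassettes. The median inclusion was 0.967 in LFD-only LSVs and 0.987 in LSVs on both diets. An exon was skipped in more than 90% of reads, that is with inclusion under 0.1, in 14.1% of LFD-only LSVs (18.7% in genes with no HFD LSV, 11.4% in genes with others), against 7.54%. For 325 cassettes both ends were LFD-only LSVs, and the inclusion read from each end differed by a median of 0.00511, with 308 (94.8%) within 0.1. For a further 191 cassettes 1 end alone was LFD-only while the other end was quantified on both diets.

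The cassettes split most evenly are given next, chosen by the size of the smaller PSI. Acaca encodes the cytosolic acetyl-CoA carboxylase, which makes malonyl-CoA for fatty acid synthesis, and its 24-nt exon shown above was included at 0.504 ± 0.0319 from the upstream end and 0.513 ± 0.0312 from the downstream end. Axin1 encodes the scaffold of the β-catenin destruction complex. A 108-bp Axin1 exon was included and skipped equally, at 0.5 each (± 0.0447). Pcgf5, a subunit of Polycomb repressive complex 1, included a 60-bp exon at 0.48 ± 0.0523. An 81-bp exon of Phactr4, a regulator of protein phosphatase 1, was included at 0.499 ± 0.0525. Itsn2 encodes an endocytic scaffold, and a junction to an exon with a single known end had a PSI of 0.534 ± 0.0454. All of these are levels on LFD, and the LSVs have no HFD value to set beside them.

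Alternative 3′ splice sites among members were often 3 nt apart. Only pairs in LSVs that start from the upstream exon were counted. Of 405 such LFD-only LSVs with a simple pair of 3′ sites, 95 (23.5%) had sites 3 nt apart, against 301 of 1875 (16.1%) on both diets. Sites within 12 nt made up 40.2% and 39.5%, and the median step was 21 nt in both sets. The less used site had a PSI of at least 0.1 in 26.2% of the LFD-only pairs and 13.0% of those on both diets. A step of 3 nt keeps the reading frame.

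Setd2, the methyltransferase that trimethylates lysine 36 of histone H3, used the upstream site at 0.521 and the downstream site at 0.479 (± 0.0509). Both of its forms are in the sequences above. Orc3, a subunit of the origin recognition complex, used its sites at 0.5 each (± 0.0449). Supt20, a subunit of the SAGA coactivator, had 0.458 and 0.542 (± 0.0488), and the same junctions listed under a second gene identifier gave 0.456 and 0.544. D930015E06Rik used the upstream site at 0.949 ± 0.023 and the downstream one at 0.0511. Longer steps were seen in Homer2, a postsynaptic and calcium-signalling scaffold, with 33 nt and PSI of 0.484 and 0.516 (± 0.0432), and in Eif4g3, a translation initiation factor, with 57 nt and 0.516 and 0.484 (± 0.0479).

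Alternative 5′ splice sites showed the opposite spacing. Here too, only LSVs that start from the upstream exon were counted. Of 282 such LFD-only LSVs with a simple pair of 5′ sites, 1 (0.355%) had a step of 3 nt, against 43 of 1175 (3.66%) on both diets. The median step was 53.5 nt in LFD-only LSVs and 43.0 nt in LSVs on both diets, and 20.2% and 27.4% of the pairs lay within 12 nt. The less used site had a PSI of at least 0.1 in 30.5% of LFD-only pairs and 10.2% of pairs on both diets. No 2-entry member carries the 5′ flag alone. In the low-fat table, 1457 of 1615 LSVs of 2 entries that carry both flags, without exon skipping or a retained intron, use a single 3′ site. Hmga1, an architectural chromatin protein, had 5′ sites 33 nt apart at 0.58 and 0.42 (± 0.0408), the known difference between its splice forms. Cdkn2aip, a regulator of the ARF-p53 pathway, had sites 31 nt apart at 0.431 and 0.569, and Rab3gap2, part of an activating complex for Rab GTPases, had sites 60 nt apart at 0.388 and 0.612.

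Retained introns were fewer among members, but more of their reads kept the intron. The 800 LFD-only LSVs with a retained intron had a median intron length of 104 bp, against 100 bp on both diets, and 48.2% and 50.7% were at most 100 bp long. The intron's PSI had a median of 0.0985 in LFD-only LSVs (0.0576 in genes with no HFD LSV and 0.115 in genes with others), against 0.0203 on both diets. It was at least 0.5 in 21.9% of LFD-only LSVs and 7.27% of those on both diets. Of the 175 LFD-only introns with a PSI of at least 0.5, 23 (13.1%) lay in LSVs that list an 11-bp exon, the length the tables give to exons with a single known end. Among 498 such introns on both diets the share was 6.43%.

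Named introns ranged widely in level. Abhd1, of the alpha/beta hydrolase family, kept a 139-bp intron at 0.66 ± 0.0507, and H2-Q5, a class I major histocompatibility gene with close copies that may share reads, kept 172 bp at 0.669 ± 0.0398. Rusc2 kept an 82-bp intron at 0.503 ± 0.0501. Crb3, a cell polarity protein, had an intron PSI of 0.495 ± 0.0457, and Masp2, a serine protease of the lectin complement pathway, had 0.493 ± 0.0626 at an 11-bp reference exon. The highest effective read number of any member was in Fgg, the fibrinogen gamma chain, where an 11-bp intron segment had a PSI of 0.894 ± 0.0145 at 449 effective reads. Rsrp1 kept a 584-bp intron at 0.927 ± 0.0148. Foxa3, a hepatocyte transcription factor, kept a 121-bp intron segment at 0.894 ± 0.0195. In these LSVs of Masp2, Fgg and Foxa3, GENCODE M21 lists none of the junctions, so their intron segments are set against unlisted junctions alone.

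The members of lowest posterior variance, among those whose minor form had a PSI of at least 0.05, were mostly lopsided choices. In genes with no HFD LSV these included a 92-bp intron of Pgp, a phosphoglycolate phosphatase, kept at 0.0532 ± 0.0198, and a 126-bp intron segment of Exosc8, an RNA exosome subunit, kept at 0.0688 ± 0.0222. Gmnn, the replication licensing inhibitor geminin, used a 5′ site at 0.0608 ± 0.0229 whose junction GENCODE M21 does not list, and Lats1, a Hippo pathway kinase, an unlisted junction from upstream at 0.0508 ± 0.023. In genes with others, Abhd5, an activator of triglyceride lipolysis, used an unlisted junction from upstream at 0.0508 ± 0.0174. Atg2a, a lipid transfer protein of autophagy, kept a 131-bp intron segment at 0.051 ± 0.0195, and Gatad2a, of the NuRD complex, used an unlisted junction at 0.0539 ± 0.0201. Fbxl5, an iron-sensing ubiquitin ligase subunit, kept a 94-bp intron segment at 0.938 ± 0.02, and the junction that removes it is also unlisted. Hyal3, Nat6 and Gm16343 overlap on chromosome 9 and share a junction, from 107580935 to 107582844, at 0.0576, 0.0571 and 0.058, so these are 1 observation.

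Genes with no HFD LSV had few members each. Of the 1067 genes 504 had a single LSV in the low-fat table, and the largest number was 12. The 10 with the most were Acacb with 12, Ablim3 with 10, Lepre1, Phf1 and Magi1 with 9 each, Pcid2, Dennd1a and Pfkfb3 with 8 each, and Tmem131 and Setd5 with 7 each. Acacb encodes the mitochondrial acetyl-CoA carboxylase, whose malonyl-CoA restrains fatty acid oxidation. Ablim3 binds actin, Lepre1 hydroxylates collagen prolines, Magi1 is a tight junction scaffold, and Pcid2 takes part in mRNA export. In these 10 genes, the number of LSVs with a second PSI of at least 0.1 was 3 in each of Acacb, Ablim3 and Magi1, 2 in each of Phf1, Dennd1a, Pfkfb3 and Tmem131, 1 in Setd5 and 0 in each of Lepre1 and Pcid2.

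**Figure D4:**
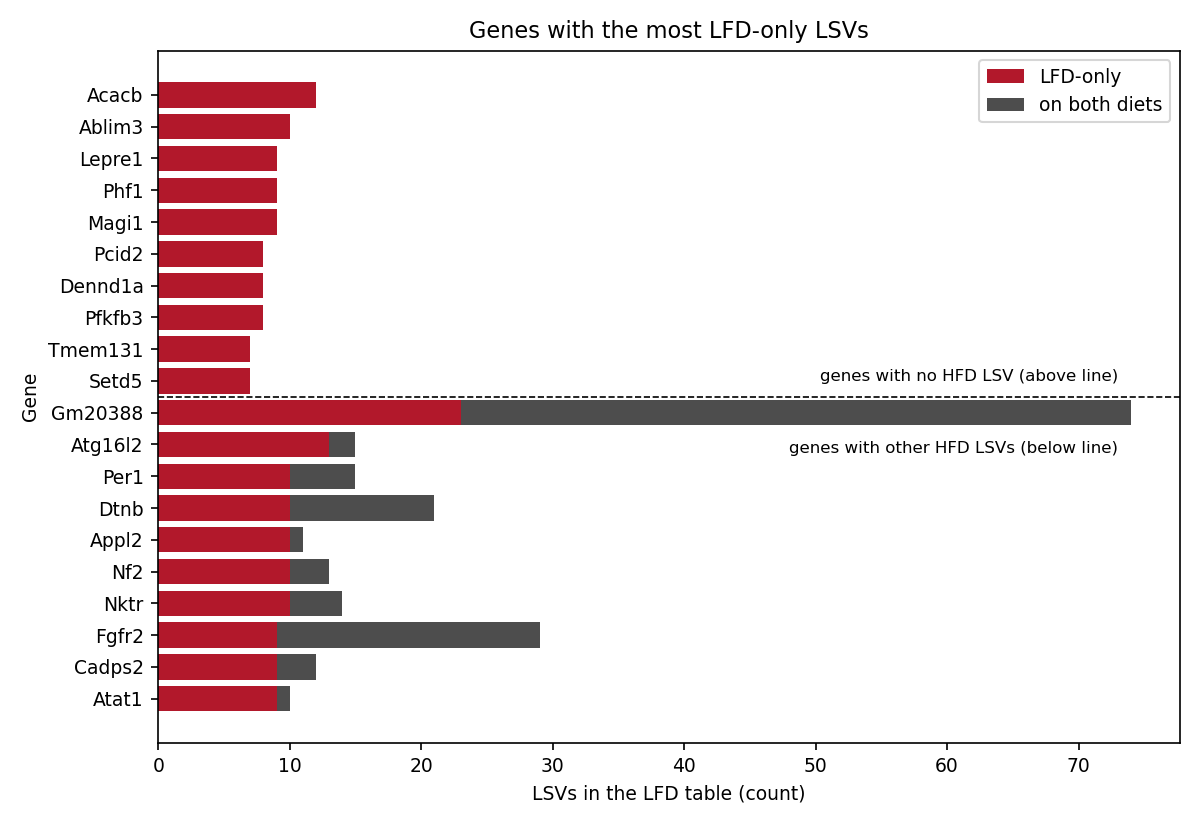
Number of LSVs in the LFD table for the 10 genes with the most LFD-only LSVs among genes with no HFD LSV (above the dashed line) and among genes with other HFD LSVs (below it), split into LFD-only LSVs and LSVs on both diets. Acacb leads the upper group with 12, and Gm20388 has 23 LFD-only LSVs of 74 in all.

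Acacb and Acaca, the pair of acetyl-CoA carboxylases, both held LFD-only choices among 5′ exons and cassettes. In Acacb (chromosome 5), an unannotated junction from an exon ending at 114155545, whose start is not known, took 0.788 ± 0.0319 of the reads into the exon at 114165509, and the annotated one from 114146825 took 0.212. A 63-bp exon at 114211638 to 114211700, absent from GENCODE M21, was included at 0.151 ± 0.0225 from upstream and 0.143 ± 0.0225 from downstream. In each of the other 9 Acacb LSVs the leading junction had a PSI of at least 0.963. Acaca (chromosome 11) had 6 LFD-only LSVs of 7. Its 5′ exon ending at 84173555 was joined to the 47-bp exon at 84193079 at 0.617 ± 0.0533 and directly to the exon at 84195438 at 0.383. The 5′ exon ending at 84179926 did so at 0.67 ± 0.0493 and 0.327. The single Acaca LSV on both diets gave its major junction 0.977 ± 0.0143 on HFD and 0.987 ± 0.00399 on LFD.

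**Figure D5:**
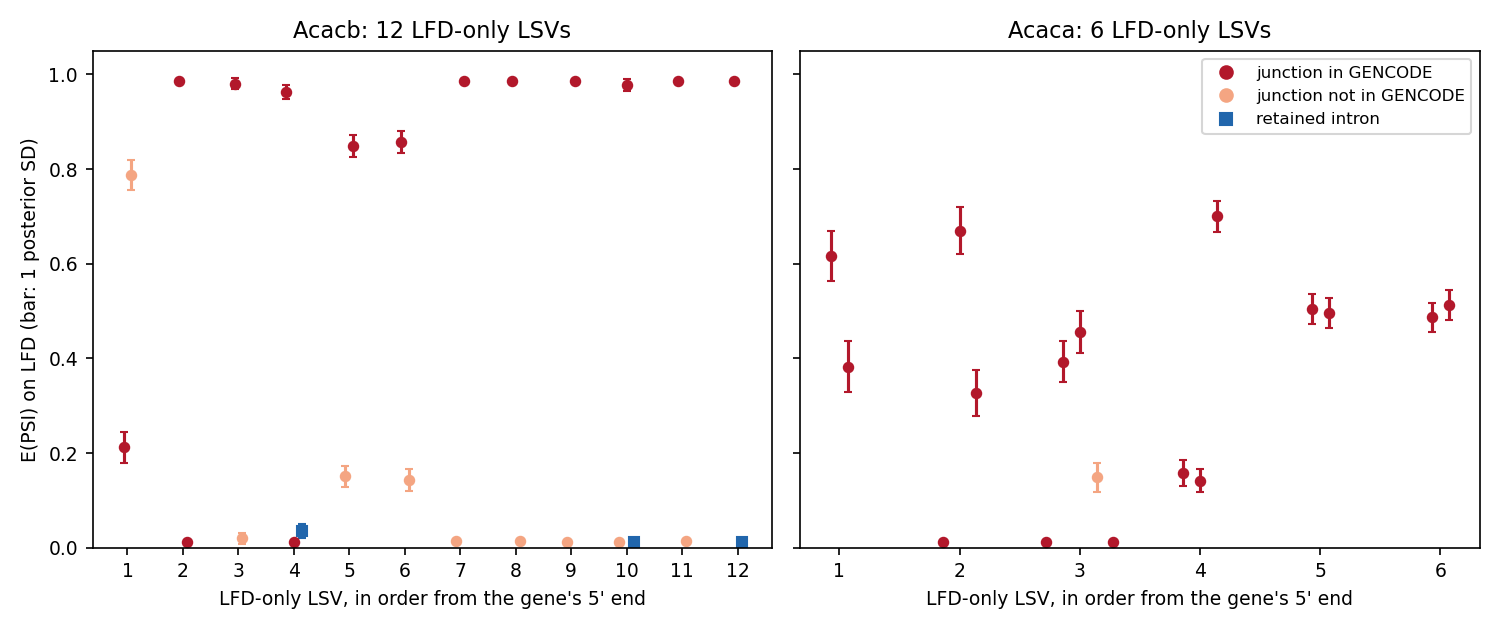
E(PSI) on LFD with 1 posterior SD for every junction and retained intron of the 12 LFD-only LSVs of Acacb and the 6 of Acaca, in order from the 5′ end of each gene. Most Acacb LSVs have a dominant junction near 0.98, while the Acaca LSVs of the 5′ exons and the 24-nt exon split between their junctions, as at 0.617 and 0.383.

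Phf1 and Pfkfb3 showed contrasting makeup in the same group. All 9 LSVs of Phf1, an accessory protein of Polycomb repressive complex 2, held a retained intron, of 85 to 120 bp. Each intron except the 120-bp one was seen from both of its ends and so counts once per end. Over these LSVs the intron PSI ran from 0.0133 ± 0.00466 for a 90-bp intron to 0.534 ± 0.0533 for the 120-bp one. Pfkfb3, which sets the level of the glycolytic activator fructose 2,6-bisphosphate, had 8 LSVs that are all marked for exon skipping. In some of them the skipping junction was near the floor, as at 0.0128. The Pfkfb3 exon from 11479900 to 11480371, on the minus strand, was reached by separate upstream junctions at 0.673 ± 0.052 and 0.323 ± 0.0518.

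Genes with other LSVs on HFD held the longest series of members. Gm20388, a gene model on chromosome 8 that runs from 119910841 to 124345722 and whose reads other genes there can share, had 23 LFD-only LSVs of 74. Atg16l2, related to autophagy, had 13 of 15, and Per1, a repressor in the circadian clock, 10 of 15. Dtnb, a dystrobrevin, had 10 of 21, Appl2, an endosomal adaptor, 10 of 11, and Nf2, the tumour suppressor merlin, 10 of 13. Nktr, a cyclophilin-domain protein, had 10 of 14. Fgfr2, a fibroblast growth factor receptor, had 9 of 29, Cadps2, a factor of vesicle secretion, 9 of 12, and Atat1, the alpha-tubulin acetyltransferase, 9 of 10. Second PSIs reached 0.491 in Gm20388, 0.473 in Dtnb, 0.442 in Atat1 and 0.43 in Fgfr2, but no more than 0.0962 in Per1 and 0.0997 in Nf2. The ratio of effective read numbers, HFD over LFD, in shared LSVs had a median of 1.1 over 6 LSVs of Gm20388 and of 0.756 over 2 LSVs of Fgfr2, and was not available for the other genes named here.

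Of the 1481 genes in this group, 1429 had an LSV on both diets and 52 had only different LSVs on HFD. No LFD-only LSV had the same set of junctions under another identifier in the HFD table. At least 1 of its junctions occurred in another HFD LSV of the same gene for 832 members (25.2% of 3296). This allowed 931 junctions of 642 genes to be compared between diets through the LSV at the other end of the junction. Of these, 7 (0.752%) differed by at least 0.2 in PSI and by over 1.96 posterior SDs, against 0.417% of all 68110 junctions on both diets. The median difference was 0.00917 in size.

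The 7 junctions were 6 with a lower PSI on HFD and 1 with a higher PSI. Tle1, a Groucho-type corepressor, had 0.502 ± 0.0543 on HFD and 0.213 ± 0.0411 on LFD. Kif21a, a kinesin, had 0.0129 ± 0.00366 on HFD and 0.269 ± 0.0327 on LFD. Rbpms, an RNA-binding protein, had 0.265 ± 0.0499 on HFD and 0.508 ± 0.0432 on LFD. Mta1, a subunit of the NuRD chromatin complex, had 0.342 ± 0.0497 on HFD and 0.576 ± 0.0459 on LFD. The other three were Mup16 (0.251 on HFD, 0.617 on LFD), which has near-identical copies, 4930581F22Rik (0.237 on HFD, 0.509 on LFD) and 1810019D21Rik (0.301 on HFD, 0.507 on LFD). The LFD-only LSV at the other end gave these junctions another share, as PSI is relative to the reference exon: 0.277 ± 0.0503 in Tle1, 0.972 ± 0.0211 in Kif21a and 0.606 ± 0.0467 in Mta1.

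The members were looked up in the authors' lists of diet differences. The authors' deposited table of PSI differences lists 97 of all 32268 LSVs of the low-fat table (0.301%), and none of the 5358 LFD-only LSVs. What made an LSV eligible for that list is not known, so nothing is read from this count. Absence from the HFD table did not by itself bar a listing, as the 27 LSVs named next show. Of the 124 LSVs in the authors' deposited table, 46 lie in genes with LFD-only LSVs, and 27 are in neither PSI table. By junctions, 2 listed LSVs match members' junctions, in Tle1 and 4930581F22Rik. For Tle1 the authors' deposited table gives 0.506 on HFD and 0.21 on LFD, a difference of 0.279. For 4930581F22Rik the authors' deposited table gives 0.235 on HFD and 0.505 on LFD, a difference of -0.223. The only gene without any LSV in the HFD table that the authors' deposited table lists is Lmbr1l, at 0.992 on HFD and 0.731 on LFD, in an LSV other than its LFD-only ones.

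JUM, a caller run separately by the authors, listed events in 61 of the 2548 genes with LFD-only LSVs (2.39%), against 4.86% of all 7099 genes of the low-fat table. At an adjusted p-value under 0.05 the authors' deposited table of JUM events held 5 of these genes (0.196%), against 0.887% of all. In genes with no HFD LSV it listed 3, and 0 at the adjusted threshold. They were Samhd1, a dNTP hydrolase, with a PSI difference (HFD minus LFD) of 0.252 and 0.0514 as its adjusted p, Gm14403, with 0.179 and 0.368, and Tbc1d31, with -0.349 and 0.371, all as the authors' deposited table gives them. In Gm14403 the JUM exon is the cassette of LFD-only LSVs, where inclusion was 0.374 ± 0.0434 from the upstream exon.

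Gene lists differed widely in how many members they held, read against the 35.9% of all genes that have one. Of 66 lipid metabolism genes with LSVs, 5 (7.58%) had an LFD-only LSV, and 22 of their 544 LSVs (4.04%) were LFD-only, against 16.6% of all low-fat LSVs. The 5 genes are Acacb and Acaca with the values above, Scd2, Pnpla3 and Lpin1. Scd2, a stearoyl-CoA desaturase, joined its source exon at 0.12 ± 0.0217 to an unannotated site 39298 bp away. Pnpla3, a lipid droplet hydrolase, divided the reads of its exon from 84185977 to 84189512 among entries at 0.518 ± 0.035 and 0.442 ± 0.0346. Lpin1, a phosphatidate phosphatase, included its 144-bp exon at 0.418 ± 0.0366 in its LFD-only LSV. The LSV at the other end, on both diets, gave inclusion as 0.595 ± 0.0477 on HFD and 0.686 ± 0.027 on LFD. The LFD inclusion of this exon thus differed between its ends. By contrast Fasn, the fatty acid synthase, had 58 LSVs on HFD and 58 on LFD with none LFD-only. Srebf1, a regulator of lipogenesis, had 26 on each diet, and Scd1 5 on each. These last 3 genes were picked after their counts were seen. The lipid list's LSVs had a median effective read number of 274 on LFD, against 162 over all low-fat LSVs.

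Among insulin and glucose genes 11 of 44 (25%) held members, against 35.9% of all genes, and 29 of their 295 LSVs (9.83%) were LFD-only. Rptor, the raptor subunit of mTORC1, had 7 of its 8 LSVs on LFD only, with a leading PSI of at least 0.983 in each. Creb1, a transcription factor of the fasting response, had 3 of 3, Tsc1, a brake on mTORC1, 2 of 2, and Crtc2, a coactivator of gluconeogenesis, 3 of 13.

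Splicing factors held members in 27 of 70 genes (38.6%), against 35.9% of all genes, while 44 of their 547 LSVs (8.04%) were LFD-only, against 16.6% of all. Mbnl2, a muscleblind RNA-binding protein, skipped a 95-bp exon at 0.427 ± 0.047. Qk, the quaking RNA-binding protein, divided its 3′ sites at 0.686 ± 0.0435, 0.28 and 0.0335. Srpk2, a kinase of SR proteins, included an unannotated 93-bp exon at 0.147 ± 0.0435 and 0.0907 ± 0.0368 from its ends. Srsf4 included an annotated 198-bp exon at 0.502 ± 0.0504. Tra2a included a 312-bp exon, not listed with these ends in GENCODE M21, at 0.361 ± 0.0468. SR and Tra2 genes are known for exons that lead to decay of the mRNA, but whether these exons do so was not tested. Rbm10, an RNA-binding splicing regulator, had 5 of 7 LSVs on LFD only, with a 74-bp exon included at 0.937.

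Inflammation and interferon genes held members in 14 of 38 (36.8%), and 28 of their 201 LSVs (13.9%) were LFD-only. Il1r1, the interleukin-1 receptor, had 5 of 6 LSVs on LFD only, among them a choice of upstream exons at 0.662 ± 0.0371 and 0.336 ± 0.0371. Traf6, a ubiquitin ligase downstream of that receptor, had a choice at 0.787 and 0.213 (± 0.0531). Jak2, a cytokine receptor kinase, used a pair of 5′ sites at 0.816 ± 0.052 and 0.178 ± 0.0513.

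Larger shares were found in 3 shorter lists. Cell cycle and DNA repair genes had members in 9 of 16 (56.2%), and 18 of their 51 LSVs (35.3%) were LFD-only. Listed zinc finger genes and partners had members in 9 of 13 (69.2%), of which 7 had no HFD LSV, and 23 of their 37 LSVs (62.2%) were LFD-only. Cilium and centrosome genes had members in 8 of 11 (72.7%), with Cep57 at 5 of 6 and Cep63 at 3 of 3, and 17 of their 40 LSVs (42.5%) were LFD-only. The median effective read number was 195 over 4 LSVs of the cell cycle list, 114 over 13 of the zinc finger list and 292 over 3 of the cilium list. Precision is thus known for few of their LSVs. These counts were given no test. Hepatocyte markers had members in 1 of 8 genes (12.5%), namely Serpina1a, an alpha-1-antitrypsin gene with near-identical copies. Among the markers of other cell types that had LSVs, 1 of 3 of macrophages (Vsig4) and 2 of 4 of endothelium (Egfl7 and Stab1) held members. So did 1 of 2 of stellate cells (Col3a1) and 0 of 1 of bile duct, against 35.9% of all genes. The part of these cell types in the members of other genes was not tested.

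Circadian clock genes, picked after their counts were seen, divided by gene. Clock had 4 LFD-only LSVs of 5, Cry2 2 of 2, Arntl 2 of 5 and Per2 its single LSV. By contrast Nr1d1 had 0 of 6, Nr1d2 0 of 2 and Dbp 0 of 1. Over all low-fat LSVs the share was 16.6%. In Clock, 3′ sites 3 nt apart had PSI of 0.692 and 0.308 (± 0.0396). Each other LFD-only LSV of Clock involved an 11-bp exon, the length given to exons with a single known end. Arntl included a 21-bp exon at 0.153 ± 0.0337 from upstream and 0.154 from downstream. The 8 retained-intron LSVs of Per1, which see each intron from both of its ends, had intron PSI from 0.0137 to 0.0962.

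Across chromosomes the LFD-only share of LSVs ran from 13.1% on chromosome 13 to 20.4% on the X chromosome, around the overall 16.6%. Protein-coding genes held 95.6% of the LFD-only LSVs and 95.7% of those on both diets. Unnamed Gm and Rik genes held 6.03% and 5.17%. Overlapping gene models list some LSVs more than once: 54 members share their coordinates with another gene identifier, which leaves 5331 distinct LSVs.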

How the data were processed

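Hepatocyte mRNA of 3 HFD and 3 LFD libraries, grouped by the library titles, was analysed from tables deposited by the authors. The submitters' processing notes name FastQC, STAR and the mm10 build; their versions and the read minimums were not given in the sources used here. MAJIQ with its voila viewer wrote the PSI tables, per the file headers, and the authors deposited E(PSI), a fraction from 0 to 1, and its posterior variance, pooled per diet. A further deposited table lists PSI differences, and the last one JUM p-values and q-values. Depth per library is unknown.

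Members were LSVs in the LFD table with no identical identifier in the HFD table. Class flags are the authors', and an LSV Type ending in i marks a retained intron. Gene models, cassettes, distances and sequences came from GENCODE release 21 of mouse (GRCm38), in which 99.6% of members' gene identifiers matched. The effective read number used junctions with PSI from 0.1 to 0.9. A junction on both diets was called at a difference of at least 0.2 and over 1.96 posterior SDs. The calculations were tested on simulated data. Named were, for genes without and with HFD LSVs apart, the 10 genes with the most members, the 3 LSVs per class with 2 entries and the largest smaller PSI, and the 10 LSVs of lowest variance with a smaller PSI of at least 0.05, plus list members. The 5′ class was named from LSVs flagged for both sites, since none had the 5′ flag alone. Others are marked as picked afterwards, or, beside list and junction counts, were chosen with their values known. The members and lists were chosen with earlier results of these data known. Python 3.11.15, pandas 2.3.3, numpy 2.4.6 and matplotlib 3.10.9 were used. A few list members are not reported here.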

Additional observations from a re-analysis of the deposited data

How the results depend on the processing

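No paired analysis was possible because each table holds 1 pooled value per diet, and for the same reason no replicate could be left out. Under the alternatives tried, 18 of 39 values moved little. This number includes values under a variance limit of 0.01, which could not move, as the largest variance of a member was 0.00432. Counts of LFD-only LSVs were allowed a wider margin than shares and medians, which had to stay within a 95% interval. The number of LFD-only LSVs ran from 4526 to 5358. Among LSVs of 2 entries, alternative 5′ sites were flagged in 9.71%, 3′ sites in 21.3% and exon skipping in 67.8%, with a median largest PSI of 0.977 and a median largest variance of 0.000244. Taking the mean variance of an LSV in place of the largest gave 0.000383. As shares of the genes with LFD-only LSVs that have at least 1 of the class, the values were 33.2%, 46.5%, 79.2% and, for retained introns, 16.1%. Alternatives chosen after seeing the data were to read classes from the LSV Type, to leave out LSVs with an 11-bp exon and to keep only LSVs with an effective read number, at any value or of at most 150. Read from the LSV Type, 5′ sites made up 16.5% and 3′ sites 20.3%, against 18.1% and 24.3% of LSVs on both diets. Where an effective read number could be computed, at any value, 5′ sites made up 30.3%, 3′ sites 38.5%, exon skipping 69.6% and retained introns 20.5%. At an effective read number of at most 150, 5′ sites made up 29.0%, 3′ sites 38.3%, exon skipping 68.6% and retained introns 20.6%. There the LSVs on both diets had nearly the same shares of exon skipping and of flagged alternative sites. Read from the LSV Type at that limit, 3′ sites made up 26.9% of LFD-only LSVs and 29.4% of those on both diets. Matching by junction in place of identifier gave 2 members in the authors' deposited table of PSI differences. Depth per library is unknown, effective read numbers cover 1572 of the 5358 members, HFD values are missing by construction, and posterior SDs leave out variation between mice.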
